A study of Mus musculus with 6 samples.

Results

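Adrenomedullin and endothelin-1 are small secreted peptides that act on G protein-coupled receptors and are best known for setting the tone and growth of blood vessels. Adrenomedullin binds a receptor made of the calcitonin receptor-like protein, encoded by *Calcrl*, and a receptor activity-modifying protein (RAMP). The RAMP decides what the receptor recognises, since *Ramp1* makes it a receptor for calcitonin gene-related peptide (CGRP) and *Ramp2* or *Ramp3* makes it a receptor for adrenomedullin. Endothelin-1 is released from a larger precursor by the endothelin-converting enzyme encoded by *Ece1* and acts on the receptors of *Ednra* and *Ednrb*. In the ovary, both peptides are made within the follicle, where they act on the vessels around it and on the follicular cells themselves. The genes described here are the 9 that encode these ligands, receptors, receptor partners and the converting enzyme. They were taken by gene symbol from a table of 16300 genes, in which 7 of the 9 had a row. *Ramp3* and *Ednrb* were not analysed here.

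The libraries were made from primary granulosa cells (GCs), the somatic cells that surround the oocyte, of wild type C57BL/6J mice aged 8 to 9 weeks. Control GCs were cultured in media and the treated GCs in media with 25 nM dihydrotestosterone (DHT), an androgen that is not converted to estrogen, for 24 h. All cells had been isolated at estrus, cultured in serum for 48 h and serum starved for 4 h. There were 3 libraries in each group, each from the pooled GCs of 5 mice, so the p-values measure the spread between pools. The labels give whole ovary as the material extracted and name DHT in the treatment text of every sample, and the groups follow the characteristic that gives control or DHT. Between 36111177 and 41928585 reads per library were counted on genes, where the smallest step between values of a library is taken as 1 read. Of 10 granulosa marker genes 9 had a row, with a summed level of 120558 to 131528 normalized counts in control and 104625 to 110848 in DHT. Of these, *Hsd17b1* rose and *Inha*, *Esr2* and *Foxl2* fell, and *Cyp19a1*, the aromatase gene, had no row. In such bulk libraries, fewer cells of a type and less RNA per cell cannot be told apart. Normalized counts are reads per gene after division by a factor that evens out library depth.

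Of the 7 genes, *Ramp1* and *Adm* rose and *Ece1* fell with DHT. *Ramp1* was the 1 gene of the 7 past both thresholds of the study, that is, adjusted p no higher than 0.05 together with a log2 fold change beyond 1 in either direction. The remaining 4, *Edn1*, *Ednra*, *Calcrl* and *Ramp2*, did not pass. A gene is called here where limma gave an adjusted p no higher than 0.05 on log2(normalized count + 1), with Benjamini-Hochberg adjustment over the 16292 genes tested. This scale understates the change of low genes. By the same rule 11.2% of all genes tested were called, 6.52% as higher and 4.66% as lower, and 1.31% passed both thresholds. The median log2 fold change was 0.08 over the 7 genes and -0.01 over all genes tested. In 4 of the 7 genes the control and DHT libraries did not overlap, against 30.6% of all genes tested. Without DHT replicate 3 the number called over all genes was 931 and without DHT replicate 2 it was 970, against 1823 with all libraries, while *Ramp1* and *Adm* were called without any one library.

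**Figure D1:**
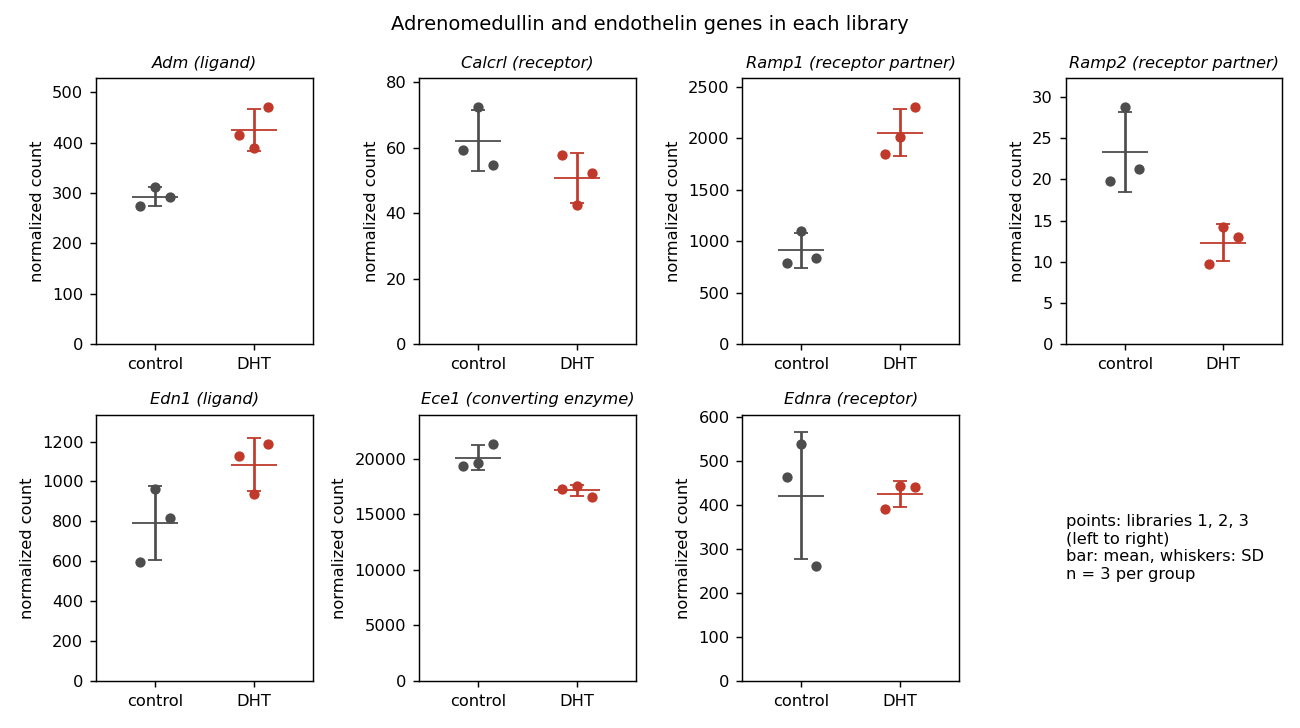
Normalized counts (vertical axes, from 0) of the 7 genes in the 3 control and the 3 DHT libraries, with the group mean as a bar and the SD as whiskers. The DHT libraries lay above all control libraries for *Adm* and *Ramp1* and below them for *Ramp2* and *Ece1*, and *Ednra* was lowest in control replicate 3, at 261.

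The sequences before the transcription starts of the 3 genes that were called are shown because the treatment is an androgen, and the letters to which the androgen receptor and the hypoxia-inducible factors bind can be looked for in them. They are the 250 bases before the RefSeq start on GRCm38.p6, 5′ to 3′ on the strand of the gene, from chr1:91179572-91179821 for *Ramp1*, chr7:110627407-110627656 for *Adm* and chr4:137913308-137913557 and chr4:137920543-137920792 for *Ece1*, all on the plus strand. *Ece1* has 4 RefSeq starts, and the windows of the last and the one before it (here the inner start) are printed. They are those of the 4 that matched the hypoxia core in the form searched, ACGTG, or the androgen half-site. Capitals mark matches to the motifs searched.
Ramp1: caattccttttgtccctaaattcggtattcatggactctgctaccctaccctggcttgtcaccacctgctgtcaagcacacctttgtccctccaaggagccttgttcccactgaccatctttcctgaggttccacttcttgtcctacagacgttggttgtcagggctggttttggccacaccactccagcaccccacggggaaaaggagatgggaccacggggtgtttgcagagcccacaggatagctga
Adm: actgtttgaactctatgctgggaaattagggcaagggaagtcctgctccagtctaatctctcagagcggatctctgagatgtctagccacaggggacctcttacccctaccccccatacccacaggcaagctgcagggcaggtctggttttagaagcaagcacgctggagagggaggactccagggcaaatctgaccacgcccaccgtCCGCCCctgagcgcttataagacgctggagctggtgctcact
Ece1 inner start: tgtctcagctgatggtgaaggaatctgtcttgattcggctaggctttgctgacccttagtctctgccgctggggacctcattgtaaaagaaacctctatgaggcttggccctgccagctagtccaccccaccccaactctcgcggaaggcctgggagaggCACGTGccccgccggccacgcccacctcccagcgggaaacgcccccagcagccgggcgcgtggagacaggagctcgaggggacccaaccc
Ece1 last start: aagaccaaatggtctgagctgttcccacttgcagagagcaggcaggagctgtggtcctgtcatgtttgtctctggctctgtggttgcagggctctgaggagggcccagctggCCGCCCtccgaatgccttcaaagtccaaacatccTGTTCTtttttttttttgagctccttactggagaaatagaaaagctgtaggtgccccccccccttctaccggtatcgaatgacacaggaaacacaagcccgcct
Searched on both strands were the palindromic androgen response element, its half-site AGAACA and the ACGTG form of the hypoxia response element core. The GC box GGGCGG and the TATA box TATAAA were searched as well. The window of *Ramp1* held none of these motifs. That of *Adm* held 1 GC box, which starts 42 bases before the start, and the window of the inner *Ece1* start held the letters CACGTG, which read as the ACGTG core on each strand. That of the last *Ece1* start held an androgen half-site, which starts 104 bases before the start, and a GC box. The windows of the other *Ece1* starts lie at the annotated start of the gene and overlap each other. They held neither ACGTG nor the androgen half-site, with no match in one and 2 GC boxes in the other. No *Ramp2* window was found in the promoter table. Of 32851 windows of 250 bases over all genes, 16.6% held the ACGTG core, 16.1% the androgen half-site, 32.7% the GC box, 12.4% the TATA box and 0.00913% the full androgen element. A match in these letters is not a binding site, and elements outside the 250 bases were not searched. The GCGTG form of the hypoxia core was not searched either. Its letters, on one strand or the other, are present in the printed windows of *Adm* and the inner *Ece1* start. The share of all windows that hold it was not computed.

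*Adm*, the gene of the adrenomedullin precursor, rose with DHT. It lies on chromosome 7 of GRCm38 from 110627661 to 110629820. In the control cultures it had 275, 312 and 292 normalized counts, against DHT values of 415, 391 and 471. All DHT libraries were above all control libraries, and the highest, DHT replicate 3, was the farthest from its group. The mean was 293 ± 18.6 without DHT and 426 ± 41.4 with it (SD, n = 3), which is 1.45 times as high, and the log2 fold change in limma was 0.53 with an SE of 0.09 (adjusted p = 0.0071). These values rest on 278 to 433 reads per library.

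*Ramp1* encodes the RAMP of the CGRP receptor and had the largest log2 fold change of the 7 genes. It lies on chromosome 1 from 91179822 to 91225196, and its exons overlap those of no other annotated gene. The normalized counts were 788, 1102 and 841 in the control cultures, against DHT values of 1846, 2012 and 2303. The lowest DHT library was above the highest control library. The mean rose from 910.3 ± 168 to 2053 ± 231 normalized counts (SD, n = 3), which is 2.26 times the control level, and the log2 fold change in limma was 1.18 with an SE of 0.12 (adjusted p = 0.00052). Of all genes tested, 105 had a larger log2 fold change.

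*Ramp2*, whose product makes the *Calcrl* receptor bind adrenomedullin, had few reads. The normalized counts were 19.8, 28.8 and 21.3 in the control cultures, against DHT values of 9.79, 14.2 and 13.1. All DHT libraries were below all control libraries. The log2 fold change was -0.86 with a 95% interval from -1.498 to -0.226, and its adjusted p of 0.088 from limma did not pass the threshold. The values come from 20, 31 and 23 reads in control and 10, 13 and 12 in DHT. For the 10 reads of DHT replicate 1 the exact Poisson 95% interval runs from 4.80 to 18.4, and for the 20 reads of control replicate 1 from 12.2 to 30.9. Such intervals cover counting error only. *Ramp2* lies on chromosome 11 from 101246028 to 101259546, and 1103 of its 3301 exonic bases are shared with *Vps25* on the same strand, so part of its reads cannot be assigned to one gene. *Vps25*, which encodes a subunit of an endosomal sorting complex and is named here for that overlap after its values were seen, had 64.2 ± 6.67 normalized counts without DHT and 72.7 ± 9.36 with it (SD, n = 3).

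*Calcrl* encodes the receptor that both RAMPs serve and was low in GCs of both groups. It lies on chromosome 2 from 84330626 to 84425411. The normalized counts were 59.4, 72.5 and 54.7 in the control cultures, against DHT values of 57.7, 42.5 and 52.2. The groups overlapped, since control replicate 3 was below DHT replicate 1. The log2 fold change was -0.29, with a 95% interval from -0.72 to 0.15 (limma, adjusted p = 0.40). It was -0.17 without control replicate 2 and -0.17 without DHT replicate 2, and it did not pass in either fit.

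The balance between the RAMPs was compared within each library, which needs no scaling between libraries. Counts were first divided by exonic length, since a longer transcript gives more reads. Per kilobase, *Ramp1* made up 97.8%, 97.7% and 97.7% of *Ramp1* plus *Ramp2* in the control libraries and 99.5%, 99.4% and 99.5% in the DHT libraries. The groups did not overlap, and the mean share differed by 1.74 percentage points (p = 0.1, two-sided, by exact permutation, which with 3 libraries against 3 cannot go lower). Per kilobase, the level of *Ramp1* was 43.5, 41.8 and 43.1 times as high as *Ramp2* in the control libraries and 206, 155 and 193 times as high in the DHT libraries. The ratio in the DHT libraries rests on 10 to 13 reads of *Ramp2*. With the bases that *Ramp2* shares with *Vps25* left out of its length, a choice made after seeing the data, the mean share of *Ramp1* differed by 2.57 points, and *Ramp1* was 28.9, 27.8 and 28.7 times as high as *Ramp2* in the control libraries and 137, 103 and 128 times as high with DHT. *Ramp3* has no part in these shares.

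*Edn1*, the gene of the endothelin-1 precursor, had 596, 962 and 819 normalized counts in the control libraries and 1128, 935 and 1189 in the DHT libraries. Control replicate 2 was above DHT replicate 2, so the groups overlapped, and control replicate 1 was the lowest of all 6. The mean was 792 ± 185 without DHT and 1084 ± 133 with it (SD, n = 3), and the log2 fold change of 0.47, with a 95% interval from 0.11 to 0.83, did not pass (limma, adjusted p = 0.097). Without control replicate 2 its log2 fold change was 0.63 and it passed (limma, adjusted p = 0.040), while without control replicate 1 it was 0.28 (limma, adjusted p = 0.18). In the 4 fits that leave out one of the other libraries it did not pass, with log2 fold changes of 0.40 to 0.58. *Edn1* lies on chromosome 13 from 42301476 to 42307990, and 35 of its exonic bases overlap an antisense gene, *Gm47118*.

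*Ece1*, whose product cuts the endothelin precursors, was the most abundant of the 7 genes and fell by a small amount. It lies on chromosome 4 from 137862237 to 137965229. Control and DHT values were apart, with normalized counts of 19303, 19599.5 and 21356 in the control cultures, against DHT values of 17311.5, 17559 and 16585. All DHT libraries were below all control libraries. The mean fell from 20086 ± 1109.8 to 17152 ± 506 (SD, n = 3), which is 0.85 times the control level, and the log2 fold change in limma was -0.23 with an SE of 0.05 (adjusted p = 0.017). Without DHT replicate 3 the log2 fold change was -0.20 and the call was lost (limma, adjusted p = 0.078). Without the intensity trend in limma the adjusted p was 0.091.

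*Ednra*, the gene of the endothelin receptor type A, showed no difference that could be told from its spread. It lies on chromosome 8 from 77663031 to 77724464. The normalized counts were 464, 539.9 and 261 in the control cultures, against DHT values of 391, 443 and 442. The 3 DHT libraries fell between the lowest and the highest control library. The log2 fold change was 0.08 with a 95% interval from -0.43 to 0.58 (limma, adjusted p = 0.87), and without control replicate 3 it was -0.24 (limma, adjusted p = 0.15). Of its exonic bases, 91 overlap the noncoding gene *4933431K23Rik* on the other strand, which had 50.5, 46.5 and 20.4 normalized counts in the control libraries. That gene too was lowest in control replicate 3.

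Levels of different genes were compared as normalized counts per kilobase of exon. In control GCs, *Ece1* stood at 3789.8 ± 209 per kilobase (SD, n = 3), followed by *Edn1* at 370.3 ± 86.3, *Ramp1* at 301 ± 55.7 and *Adm* at 181 ± 11.5. Below them were *Ednra* at 77.0 ± 26.3, *Calcrl* at 12.7 ± 1.89 and *Ramp2* at 7.06 ± 1.46 (SD, n = 3). The ranges of *Edn1* and *Ramp1* overlapped in control, and those of all other neighbours in this order did not. For *Calcrl* and *Ramp2* this depends on the length used. Over the exonic bases that *Ramp2* does not share with *Vps25*, a choice made after seeing the data, its control libraries stood at 9.00, 13.1 and 9.69 per kilobase, which overlaps *Calcrl* at 11.2 to 14.8. With DHT, *Ramp1* stood next after *Ece1*, at 679 ± 76.6 per kilobase (SD, n = 3), and its libraries, from 611 to 762, lay above those of *Edn1*, from 437 to 556.

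**Figure D2:**
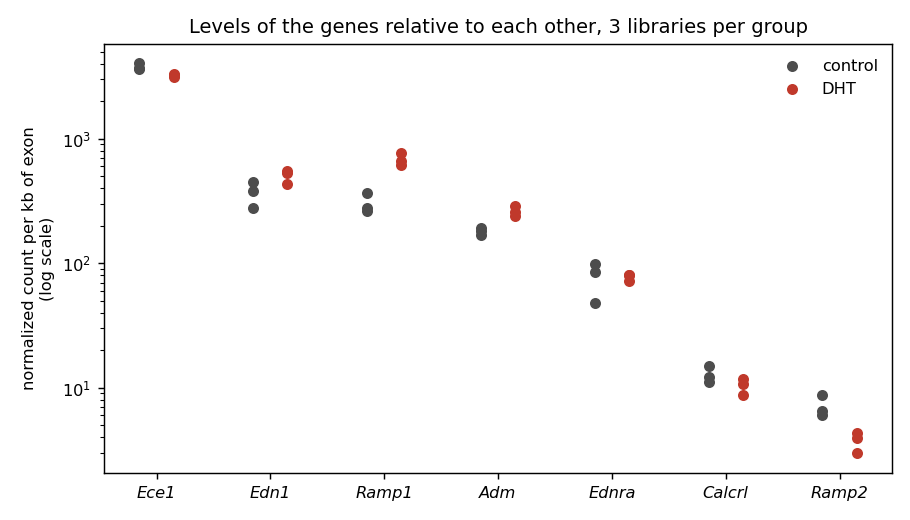
Normalized count per kilobase of exon (vertical axis, log scale) of the 7 genes, ordered by their mean in control, with 1 point per library. *Ece1* stood highest in both groups, and the receptor gene *Calcrl* and its partner *Ramp2* were at or below 14.8 per kilobase in every library.

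The 3 genes whose log2 profile over the 6 libraries was closest to each called gene were looked up among 12704 genes with a mean of at least 50 normalized counts. Closeness was the root mean square difference of the centred log2 values, and it is given as a description without a test. For *Ramp1* the nearest were *Mmp2*, a gelatinase (0.06), *Rnf152*, a ubiquitin ligase (0.07), and *Nox4*, an NADPH oxidase (0.08). *Mmp2*, like *Ramp1*, was lowest in control replicate 1 and highest in DHT replicate 3, with 654 and 2057 normalized counts there. For *Adm* the nearest were *Azin2*, *Abcb1a* and *Plscr2*, at 0.03 to 0.04, and for *Ece1* they were *Ttll7*, *Utp20* and *Ssbp2*, at 0.02 to 0.03.

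Cells that line or wrap blood vessels are known for high expression of several of these genes, so their markers were examined in the same libraries. Of 12 endothelial markers, 7 had a row, 0 were called by limma and the unadjusted p was below 0.05 for 1 of them, *Egfl7*. *Egfl7* and *Tek* were lower with DHT without overlap, with log2 fold changes of -0.36 and -0.40. Over all genes tested, 30.6% did not overlap. *Pecam1*, *Cdh5*, *Kdr*, *Eng* and *Esam* had positive log2 fold changes and overlapped. The summed level of the 7 was 369.6 to 449.8 normalized counts in control and 349 to 446 in DHT. *Pecam1* stood at 44.5 to 56.7 and *Cdh5* at 28.7 to 38.1 normalized counts in control, while *Tie1*, *Flt1*, *Emcn*, *Vwf* and *Cldn5* had no row. None of the 7 was at 0 in any library, and their part in the values of *Calcrl* and *Ramp2* was not tested. Of 8 mural markers, which mark smooth muscle cells and pericytes, 7 had a row and 4 rose, against 6.52% of all genes tested. *Acta2*, smooth muscle actin, rose from 5399 ± 1068 to 9012 ± 762 normalized counts (SD, n = 3), or by 0.76 on the log2 scale, and *Myh11*, *Cnn1* and *Cspg4* had log2 fold changes of 0.67, 0.67 and 0.89, with adjusted p from 0.0056 to 0.037 by limma over the 4 genes. *Des*, *Pdgfrb* and *Mcam* were not called, with log2 fold changes of 0.25, 0.21 and -0.05. The summed level of the 7 was 7627 to 11534 normalized counts in control and 12915 to 13936 in DHT, none was at 0 in any library, and *Rgs5* had no row. The 4 that rose moved in the same direction as *Ramp1*, and their part in its rise was not tested.

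No marker of the other cells that a GC preparation can hold was called by limma, with 5 of 5 fibroblast markers, 3 of 5 theca markers, 3 of 6 leukocyte markers and 6 of 6 oocyte markers having a row. The unadjusted p was below 0.05 for *Ptch1* and *Aldh1a1* of the theca list, with log2 fold changes of -0.19 and -0.23, and for *Dcn* of the fibroblast list, with -1.05. The theca markers *Cyp17a1* and *Insl3* had no row, and the 3 theca markers summed to 137377 to 158748 normalized counts in control and 125760 to 128240 in DHT. Nearly all of that sum was *Aldh1a1*, at 134921 to 155949 in control and 123549 to 126048 in DHT, while *Ptch1* stood at 2172 to 2773 and *Gli1* at 12.1 to 33.8 over the 6 libraries. The theca sum was above that of the 9 granulosa markers in both groups. The summed level of the fibroblast markers was 3499.6 to 4444 normalized counts in control and 4016 to 4536 in DHT, and that of the leukocyte markers was 372 to 453 in control and 299.99 to 533 in DHT. The oocyte markers summed to 307 to 791 normalized counts in control and 43.6 to 568 in DHT, with the lowest sum in DHT replicate 2, where *Zp3* was at 0.

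**Figure D3:**
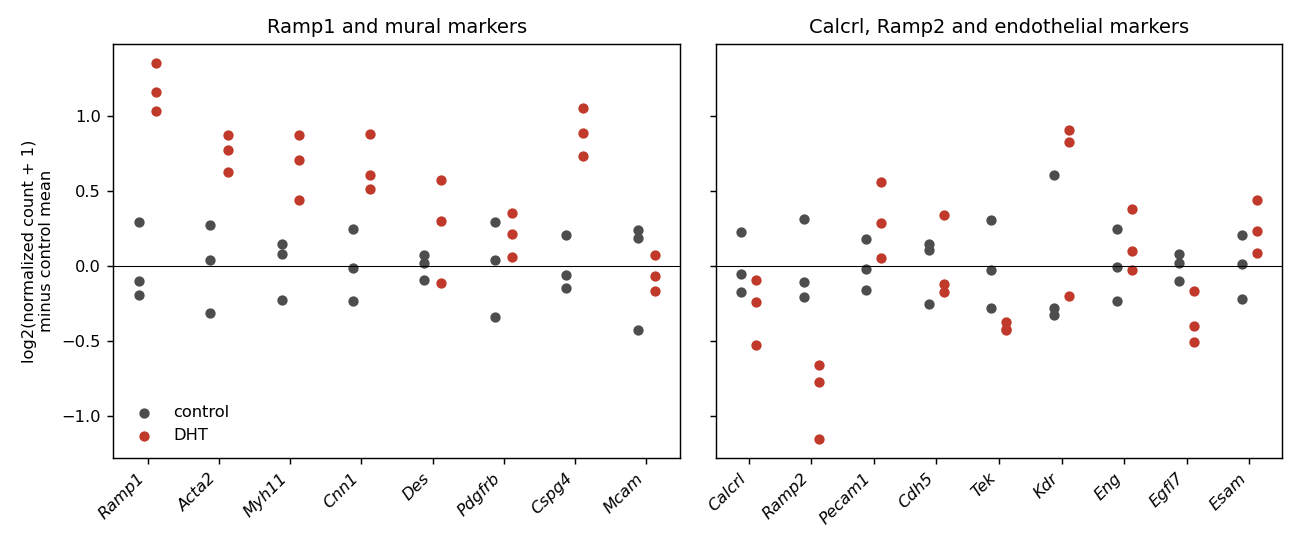
log2(normalized count + 1) minus the control mean (vertical axes) of *Ramp1* with 7 mural markers, and of *Calcrl* and *Ramp2* with 7 endothelial markers, with 1 point per library. With DHT, all libraries lay above all control libraries for *Ramp1*, *Acta2*, *Myh11*, *Cnn1* and *Cspg4*, while the groups overlapped for *Des*, *Pdgfrb* and *Mcam*. In the other panel, all DHT libraries lay below all control libraries for *Ramp2*, *Tek* and *Egfl7*. The groups overlapped there for *Calcrl*, *Pecam1*, *Cdh5*, *Kdr*, *Eng* and *Esam*.

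Other genes of the adrenomedullin and CGRP system were taken as a list of 10, of which 6 had a row. Of these 6, 1 was called higher and 0 lower, against 6.52% and 4.66% of all genes tested. The median log2 fold change of the 6 was -0.05. The gene called was *Mme*, which encodes neprilysin, a membrane peptidase that breaks down many vasoactive peptides. Neprilysin transcripts had normalized counts of 667, 683 and 756 in the control cultures, against DHT values of 1355, 1233 and 1347. This is 1.87 times the control level without overlap, with a log2 fold change of 0.90 (adjusted p = 9.6e-05 from limma). *Ackr3*, which encodes a scavenger receptor that also takes up adrenomedullin, had a log2 fold change of -0.973 (limma, adjusted p = 0.12). It was lower in control replicate 3 than in the other control libraries, and without that library it was called lower, so that 2 genes of the list were called. *Pam*, the enzyme that amidates adrenomedullin into its active form, had a log2 fold change of -0.18 (limma, adjusted p = 0.12). *Adm2*, the gene of a related ligand, stood at 17.7 ± 1.83 normalized counts without DHT and 22.9 ± 4.01 with it (SD, n = 3).

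For the endothelin system, 4 of 8 further genes had a row, with a median log2 fold change of 0.47. Of the 4, 2 were called higher and 0 lower, against 6.52% and 4.66% of all genes tested. *Mme* is one of the 2, since neprilysin also degrades endothelins. *Mmel1*, which encodes a closely related peptidase, had 427, 388 and 302 normalized counts in the control libraries and 626, 735 and 801 in the DHT libraries. The groups did not overlap, and its log2 fold change was 0.96 (adjusted p = 0.0023 from limma). *Ece2*, another converting enzyme, and *Furin*, which makes the first cut in the endothelin precursor, had log2 fold changes of -0.16 and 0.03 and did not pass. *Edn2* and *Edn3*, the genes of the other 2 endothelins, had no row.

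Both kinds of receptor signal through G proteins, adrenomedullin mainly through that of *Gnas* and endothelin mainly through those of *Gnaq* and *Gna11*. Of 13 genes of G proteins, phospholipases C, arrestins and receptor kinases, 1 was called higher and 0 lower, against 6.52% and 4.66% of all genes tested. The gene called was *Plcb4*, a phospholipase C. It rose from 1229 ± 43.3 to 1433 ± 40.7 normalized counts (SD, n = 3), or by 0.22 on the log2 scale (adjusted p = 0.019 from limma). This call was lost without control replicate 2, DHT replicate 2 or DHT replicate 3, and also with no intensity trend or with the replicate block. Without control replicate 3 *Gna12* was called as well. The log2 fold change was 0.11 for *Gnas*, -0.09 for *Gnaq* and 0.04 for *Gna11*, none of which passed, and the median over the 13 genes was 0.11.

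Genes of other vasoactive systems were counted in the same way, from a list chosen with earlier results of these data known. Of 24 such genes 9 had a row, with a median log2 fold change of 0.23. Of the 9, 3 were called higher and 0 lower, against 6.52% and 4.66% of all genes tested. *Ptgis*, which encodes prostacyclin synthase, had 703, 832 and 799 normalized counts in the control libraries and 1523, 1629.8 and 1815 in the DHT libraries, a log2 fold change of 1.09. *Nos2*, the inducible nitric oxide synthase, had 426, 649.6 and 516 in control and 1068, 1028 and 1144 in DHT, a log2 fold change of 1.04. *Ace*, the angiotensin-converting enzyme, had 169, 189.6 and 217 in control and 352, 350.2 and 426 in DHT, a log2 fold change of 0.97. In all 3 the groups did not overlap, as in 30.6% of all genes tested, with adjusted p from 0.00010 to 0.0013 by limma over the 3 genes.

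**Figure D4:**
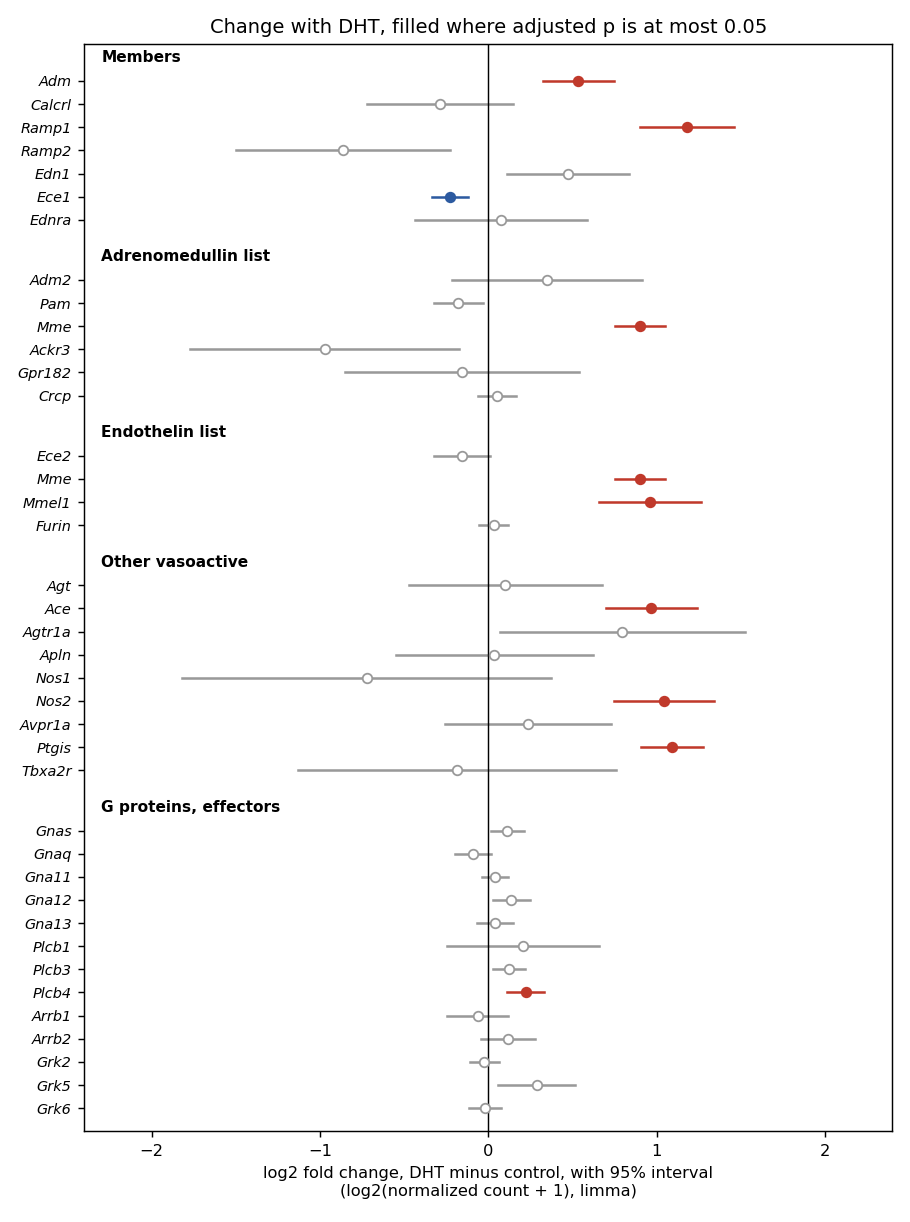
log2 fold change of DHT against control (horizontal axis) with its 95% interval from limma for the 7 genes (headed Members) and the genes of 4 lists, filled where the adjusted p was at most 0.05. *Ramp1* at 1.18, *Ptgis* at 1.09 and *Nos2* at 1.04 are the filled points above 1, and *Ece1* at -0.23 is the only filled point below 0.

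*Adm* and *Edn1* are known targets of the hypoxia-inducible factors, and the study deals with the protein level of one of them, HIF1α. It reports that DHT raised this protein and, by quantitative PCR, had no effect on its mRNA. Of 15 genes of the hypoxia-inducible factors and their known targets, all had a row. By limma 4 were called higher and 0 lower, against 6.52% and 4.66% of all genes tested. *Ndrg1*, *Bnip3* and *Hif1a* had log2 fold changes of 0.73, 0.42 and 0.30, and *Egln1*, an oxygen sensor, one of 0.15 (limma, adjusted p = 0.048). The rise of *Hif1a* RNA here, to 1.23 times the control level (limma, adjusted p = 0.0021), differs from the quantitative PCR result of the study. The *Egln1* call was lost in each of the 6 fits that leave out 1 library, and with quantile normalization, no intensity trend or the replicate block. The median over the 15 genes was 0.15. *Vegfa* had a log2 fold change of 0.23 (limma, adjusted p = 0.074), and *Slc2a1*, *Pgk1* and *Ldha* had 0.19, -0.06 and 0.0039 and did not pass. Without control replicate 3, 7 genes of the list were called, *Epas1* lower and *Bnip3*, *Ddit4*, *Hif1a*, *Ndrg1*, *Slc2a1* and *Vegfa* higher, and 3 were called in each of the 5 other fits that leave out 1 library.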

How the data were processed

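RNA was sequenced from 3 control and 3 DHT libraries. Per the labels and the study's methods, the authors trimmed reads with Trimmomatic 0.36, aligned them to GRCm38 with STAR 2.5.2b, counted them per gene with featureCounts of Subread 1.5.2 and scaled the counts with DESeq2. The annotation release and strand setting are not given in the sources used here. The deposited values are a signal: reads divided by a size factor per library. Within a library all values were whole multiples of one unit, to within 5.5e-10 of it. Taking that unit as 1 read, which no source used here states and which an automated check of the values recovered for 3 of the 6 libraries, gives 38486526, 41366587 and 41928585 reads in control and 39777305, 36111177 and 36240461 in DHT. Columns with the authors' fold changes and p-values, and a shorter table of selected genes, were not used, and 0 columns belonged to other samples.

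Genes with a mean of at least 10 normalized counts (16292 of 16300) were tested on log2(normalized count + 1) by limma (3.58.1, R 4.3.3) using its intensity trend, no replicate block and Benjamini-Hochberg adjustment. The script was tested on simulated data. Positions and merged exon lengths are from GENCODE vM21 on GRCm38, and promoters from RefSeq. The members and gene lists were chosen with earlier results of these data known. One gene of each of 2 lists is not reported here and is left out of those lists. All members were named, with each list's called genes (up to 8 by p), genes needed to read a count of 5 or fewer, the 3 nearest profiles of each called member, and marker sums; other genes were named after their values were seen. Alternatives were other pseudocounts (0.5, 8), filters (none, 50), TMM scaling, quantile normalization, no trend, a replicate block, and leaving out each library.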

Additional observations from a re-analysis of the deposited data

How the results depend on the processing

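*Ramp1* and *Adm* were called under all 14 alternatives, with log2 fold changes of 1.09 to 1.33 and 0.46 to 0.59. Over all genes, 1823 calls became 804 without the intensity trend and 990 with the replicate block, and 931 to 2094 with 1 library left out. Leaving out 1 library gave 1 to 2 calls in the adrenomedullin list, 0 to 2 in the G protein list and 3 to 7 in the hypoxia list, and the G protein list had 0 calls without the trend and 0 with the replicate block. *Ednra* reversed without control replicate 3, to -0.24, in a range of -0.24 to 0.29. The *Ramp1* share differed by 1.89 points without length correction and by 2.57 points with unshared *Ramp2* length, chosen after seeing the data. The cause of these changes was not tested.

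The replicate numbers were shared between groups, and the sources used here do not say whether same-numbered libraries came from the same pool of mice. After centring on the group mean, same-numbered libraries correlated at 0.0058, 0.067 and -0.24. These correlations cannot decide whether the samples were paired, since that is a matter of the design. With the replicate block, *Ece1* alone of the 3 genes lost its call, with an adjusted p of 0.072 from limma. The planned count tests were not run, nor was the share of *Ednra* among endothelin receptors. The median log2 fold change over all genes stayed between -0.014 and -0.0029 under all alternatives. Low read numbers limit *Ramp2* and *Calcrl*.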
